A study of Homo sapiens with 3 samples.

Results

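The collagens, laminins and integrins were described in low-input RNA-seq of human lung epithelial cell lines. The members were the genes whose symbols begin with COL, a number and A, with LAMA, LAMB or LAMC and a number, with ITGA, or with ITGB and a number. There were 83 of them among the 18856 genes listed in at least 1 library, and 74 were protein chains, comprising 37 collagen, 12 laminin, 17 integrin alpha and 8 integrin beta chains. The other 9 only share the start of the symbol: 3 antisense genes, 2 pseudogenes, 3 proteins named after the integrin beta chains they bind, and COL4A3BP, which encodes a ceramide transfer protein. The values came from 3 libraries, each prepared from about 10 pg of polyA+ mRNA diluted from bulk mRNA of a cultured cell line whose total RNA had been isolated with Trizol. The labels name no treatment or genetic change. A549 LIEA was made from A549, a lung adenocarcinoma line, and HBE LIEA from HBE, a human bronchial epithelial line. LIEA (low-input, equal-amplification) fragments the mRNA, ligates adapters and sequences on the Ion Torrent platform. HBE Smart-seq2 was made from HBE mRNA by oligo-dT priming with template switching and amplification of the cDNA before library construction, and was sequenced on the Illumina platform. Each condition is 1 library of 1 cell line, so no difference has a replicate check, and an established line stands for neither bronchial tissue nor lung tumours. In bulk RNA, fewer cells that express a gene and less RNA per cell cannot be told apart.

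Collagens are secreted as triple helices of 3 alpha chains, and laminins as cross-shaped trimers of an alpha, a beta and a gamma chain. Type IV collagen and laminins build the basement membrane, the sheet under every epithelium, including that of the airway. Integrins are receptors of an alpha and a beta chain that span the cell membrane and tie this matrix to the cytoskeleton. Basal cells of the bronchial epithelium are known for hemidesmosomes, adhesion plaques that contain COL17A1 and the integrin of ITGA6 and ITGB4 and that bind a laminin containing LAMA3 and LAMB3.

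The deposited values are log2 rpkM (log2 of reads per kilobase of transcript per 1000000 mapped reads), which allows levels of different genes to be compared per length. The reads behind each value were worked out here from the deposited values, with 4154060 mapped reads in total for A549 LIEA, 4605855 for HBE LIEA and 9845150 for HBE Smart-seq2. A gene without a value was taken to have no reads, and 3 reads were taken as its upper limit, which is 0.722, 0.651 and 0.305 reads per 1000000 mapped reads in the same order. Intervals are exact 95% intervals of the ratio of reads. They cover counting error only, since PCR reads without molecular identifiers are not independent molecules. All 5 epithelial markers (EPCAM, CDH1, KRT8, KRT18, KRT19) had at least 10 reads in every library, with a summed rpkM of 8530 in A549 LIEA, 1700 in HBE LIEA and 3442 in HBE Smart-seq2. KRT8 and KRT18 weighed most in these sums and were at least 2-fold above both HBE libraries in A549 LIEA. EPCAM (log2 rpkM 2.87, 5.84 and 8.01 in the same order) and CDH1 (4.28, 5.84 and 5.81) were at least 2-fold below both. The 4 markers of bronchial basal cells (KRT5, KRT14, KRT6A, TP63) summed to 7.08, 609 and 786 rpkM, so the A549 and HBE lines differed in basal cell markers beside every result below. Of the markers of other cell types, 5 of 7 for fibroblasts had a value in at least 1 library and summed to 2.0, 5.58 and 15.4 rpkM, 3 of 4 for endothelium summed to 0.487, 12.3 and 10.9 rpkM, 4 of 5 for leukocytes summed to 28.0, 41.9 and 52.1 rpkM, and 2 of 3 for muscle summed to 1.24, 3.10 and 2.41 rpkM. DCN, POSTN, TEK, CD3E and DES had no value here. The fibroblast sums of HBE were nearly all FAP, with log2 rpkM of 2.45 by LIEA and 3.94 by Smart-seq2. FAP had no value in A549 LIEA. Its worked-out reads, 5 and 30, are few for these levels and imply a very short transcript, so they may be too low. Of the other fibroblast markers, THY1 had 34, 2 and 0 reads, PDGFRA 5, 0 and 0, PDGFRB 0, 1 and 6, and LUM 1, 0 and 0. The endothelial sums of HBE were mostly CDH5, with 206 and 360 reads in the LIEA and the Smart-seq2 library and none in A549 LIEA, and the largest part of the leukocyte sums was CD68, a lysosomal protein also found outside leukocytes. The part of these cell type differences in the results was not tested.

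With 10 reads as the criterion for a quantified gene, 53 members were quantified in A549 LIEA, 43 in HBE LIEA and 46 in HBE Smart-seq2. All 3 libraries quantified 38 members, and 22 had fewer than 10 reads in each library. A549 LIEA was the only library to quantify 13 members: COL5A2, COL6A1, COL6A2, COL11A1, COL11A2, COL20A1, COL21A1, COL26A1, LAMA4, LAMC3, ITGA2B, ITGA7 and ITGA11. COL8A1, ITGB6 and the antisense gene ITGB2-AS1 were quantified in both HBE libraries and not in A549 LIEA. The share of mapped reads that fell on the members was 0.818% in A549 LIEA (exact binomial interval 0.810 to 0.827), 1.16% in HBE LIEA (1.15 to 1.17) and 0.512% in HBE Smart-seq2 (0.508 to 0.517). The collagen chains alone took 0.159%, 0.249% and 0.0590% of the reads.

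A member was called where levels differed at least 2-fold, among genes with at least 10 reads in 1 of the libraries compared. Against HBE LIEA, 20 of 57 members were called higher in A549 LIEA and 19 lower, 35.1% and 33.3%, while over all 13701 genes tested 20.4% were higher and 21.0% lower. A549 LIEA was at least 2-fold above both HBE libraries for 19 of 61 members (31.1%) and below both for 15 (24.6%), against 15.6% and 13% of all 14570 genes. The same filter applied to members and to all genes. The 13 members quantified in A549 LIEA alone passed it only through the library in which they were high, and all are among the 19 above both. Of the 15 below both, COL8A1 and ITGB6 passed only through the HBE libraries. COL15A1, COL9A2 and COL9A3 passed only through HBE Smart-seq2. By family, 11 of 26 collagen, 2 of 9 laminin, 5 of 14 integrin alpha and 1 of 7 integrin beta chains were above both HBE libraries, and 6, 3, 3 and 2 were below both. Among the 39 members with 10 reads in both LIEA libraries, the median difference of A549 LIEA minus HBE LIEA was -0.87 on the log2 scale, and it was -0.16 over 11343 genes. Against HBE Smart-seq2 the median of the 39 members with 10 reads in both was 0.88, and it was 0.01 over 11317 genes, so the sign turned with the HBE library. Of the 38 members quantified in every library, 15 were lower in A549 LIEA than in HBE LIEA and higher than in HBE Smart-seq2, and for ITGAE and ITGB1BP1 it was the reverse. The comparisons with HBE LIEA share libraries, so their counts are not separate evidence.

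Type IV collagen is encoded by 6 genes that lie in the genome as 3 head-to-head pairs, each pair reading away from a common start region. The 6 promoters are shown because the difference of A549 from HBE LIEA was negative in COL4A1 and COL4A2, positive in COL4A3 and COL4A4 and under 2-fold in COL4A5 and COL4A6. They are RefSeq sequences of GRCh38.p14, from 250 bases before to 50 bases after the gene start, which takes in the upstream region and the beginning of the first exon. COL4A1 (chr13:110307108-110307407, minus strand) and COL4A2 (chr13:110307034-110307333, plus strand) start 127 bases apart, COL4A3 (chr2:227164374-227164673, plus strand) and COL4A4 (chr2:227164156-227164455, minus strand) 419 bases apart, and COL4A5 (chrX:108439588-108439887, plus strand) and COL4A6 (chrX:108439409-108439708, minus strand) 380 bases apart. The windows of a pair overlap by 226, 82 and 121 bases. Capitals mark GC boxes (GGGCGG or, on the other strand, CCGCCC) and CCAAT boxes (CCAAT or ATTGG). Each sequence is written on the strand of its gene.
COL4A1: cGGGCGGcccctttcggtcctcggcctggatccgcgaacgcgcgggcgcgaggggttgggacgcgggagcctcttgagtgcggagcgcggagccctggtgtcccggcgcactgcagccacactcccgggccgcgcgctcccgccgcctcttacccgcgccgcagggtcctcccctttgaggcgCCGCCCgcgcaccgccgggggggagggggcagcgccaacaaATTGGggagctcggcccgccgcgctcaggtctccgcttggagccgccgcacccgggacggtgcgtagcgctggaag
COL4A2: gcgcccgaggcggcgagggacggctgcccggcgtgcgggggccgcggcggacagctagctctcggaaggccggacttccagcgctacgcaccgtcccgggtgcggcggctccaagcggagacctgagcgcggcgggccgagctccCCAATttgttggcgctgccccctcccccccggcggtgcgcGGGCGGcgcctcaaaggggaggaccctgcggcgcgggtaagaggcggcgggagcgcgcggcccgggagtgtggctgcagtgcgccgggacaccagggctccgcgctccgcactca
COL4A3: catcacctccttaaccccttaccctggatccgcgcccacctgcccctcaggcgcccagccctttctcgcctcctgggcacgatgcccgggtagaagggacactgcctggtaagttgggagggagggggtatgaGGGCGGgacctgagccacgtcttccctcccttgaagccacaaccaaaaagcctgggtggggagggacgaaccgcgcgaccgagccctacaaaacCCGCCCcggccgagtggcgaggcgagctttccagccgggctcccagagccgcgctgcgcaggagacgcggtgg
COL4A4: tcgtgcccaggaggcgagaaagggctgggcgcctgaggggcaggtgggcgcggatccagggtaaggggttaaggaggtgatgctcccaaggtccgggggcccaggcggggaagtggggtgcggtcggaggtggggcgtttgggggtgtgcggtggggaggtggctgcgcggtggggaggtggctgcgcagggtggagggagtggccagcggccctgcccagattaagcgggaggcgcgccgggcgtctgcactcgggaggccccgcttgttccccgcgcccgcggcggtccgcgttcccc
COL4A5: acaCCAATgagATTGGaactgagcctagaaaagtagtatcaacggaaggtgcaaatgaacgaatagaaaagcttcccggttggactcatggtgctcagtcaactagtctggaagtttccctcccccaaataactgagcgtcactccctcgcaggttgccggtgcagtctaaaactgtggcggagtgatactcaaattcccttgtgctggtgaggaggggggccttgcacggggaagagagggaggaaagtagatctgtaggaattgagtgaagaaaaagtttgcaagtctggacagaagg
COL4A6: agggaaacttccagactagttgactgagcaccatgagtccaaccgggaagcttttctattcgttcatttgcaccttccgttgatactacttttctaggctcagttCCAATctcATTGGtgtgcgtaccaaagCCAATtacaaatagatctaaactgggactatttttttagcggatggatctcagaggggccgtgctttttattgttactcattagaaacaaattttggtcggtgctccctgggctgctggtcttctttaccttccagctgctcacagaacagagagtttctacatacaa
The first pair holds both kinds of box, COL4A3 has 2 GC boxes, COL4A4 has neither kind, and COL4A5 and COL4A6 have 2 and 3 CCAAT boxes and no GC box. The GC and CCAAT matches do not overlap each other in these windows, and a match that lies in the shared part of a pair was counted for both genes. Promoters were found for 56 of the 83 members. A GC box lay in 58.9% of these and in 44.6% of all 27305 promoters, CCAAT in 26.8% and 35.7%, TATAAA in 8.93% and 12%, and the AP-1 motif TGANTCA in 3.57% (ITGA5 and LAMA3) and 7.76%, on either strand. A match is a description of the letters and not evidence of a bound factor.

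COL4A1 and COL4A2, which form the type IV network found in nearly every basement membrane, were the lower pair in A549. COL4A1 had a log2 rpkM of 1.41 in A549 LIEA, 3.20 in HBE LIEA and 3.32 in HBE Smart-seq2. COL4A2 had 3.41, 5.14 and 4.05. Their log2 differences between the LIEA libraries were -1.79 (interval -2.18 to -1.41) and -1.73 (-1.92 to -1.53), so the pair was alike within counting error in this comparison. Against HBE Smart-seq2 they were -1.91 (-2.28 to -1.56) and -0.64 (-0.84 to -0.45), and only COL4A1 was called. COL4A3 and COL4A4, chains of the network of the kidney glomerulus and the lung alveolus, were higher in A549. COL4A3 had 2.44, 0.56 and -1.23 in the same order, and COL4A4 had 2.89, 1.27 and -1.24. The differences between the LIEA libraries were 1.88 (1.43 to 2.34) and 1.62 (1.31 to 1.94), again overlapping, and both genes were the higher in A549 against each HBE library. COL4A5 had 4.25, 4.44 and 2.76, and COL4A6 had 3.66, 4.21 and 1.85. The pair differed from HBE LIEA by -0.18 (-0.35 to -0.02) and -0.56 (-0.75 to -0.36), intervals that did not overlap, and from HBE Smart-seq2 by 1.49 and 1.81, so its direction depended on the HBE library. Both were called higher in LIEA than in Smart-seq2 of HBE. Pairs did not move together in every comparison: between the methods COL4A1 differed by -0.12 (-0.33 to 0.09) and COL4A2 by 1.09 (0.96 to 1.21).

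The other basement membrane and anchoring collagens separated the cell lines further. COL17A1, a transmembrane collagen of hemidesmosomes, had 18 reads in A549 LIEA, 2677 in HBE LIEA and 1691 in HBE Smart-seq2, which are log2 rpkM of -0.37, 6.69 and 4.94. It was 134-fold lower in A549 LIEA than in HBE LIEA (log2 difference -7.07, -7.82 to -6.40), the widest gap among the members with 10 reads in both, and 39.6-fold lower than in HBE Smart-seq2. COL17A1 was also the collagen with the highest level in both HBE libraries, 29.8% and 33.5% of the summed collagen rpkM. COL7A1, which forms the anchoring fibrils below the basement membrane, had log2 rpkM of 4.65, 6.62 and 3.31. Its A549 level lay between the HBE libraries: it was -1.97 (-2.07 to -1.87) from HBE LIEA and 1.34 (1.21 to 1.47) from HBE Smart-seq2, so the sign depended on the HBE library. The comparison with HBE Smart-seq2 differs in method as well as in cell line. COL18A1, a basement membrane collagen from which endostatin is cut, was high in A549. The log2 rpkM of COL18A1 was 5.52 with 1126 reads in A549 LIEA, 1.41 with 72 reads in HBE LIEA and 1.16 with 130 reads in HBE Smart-seq2. The HBE libraries differed by 0.24 (-0.19 to 0.67), while A549 was 4.12 (3.77 to 4.48) above HBE LIEA. COL15A1, the related multiplexin, went the other way, with no reads in A549 LIEA, 7 in HBE LIEA and 62 in HBE Smart-seq2. With its A549 reads set to 3, it was 2.10-fold lower in A549 than in HBE LIEA, and the counting interval of the log2 difference reached up to -0.38. The 2.10-fold value no longer reached 2-fold when the differences were centred on the median of all genes.

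**Figure D1:**
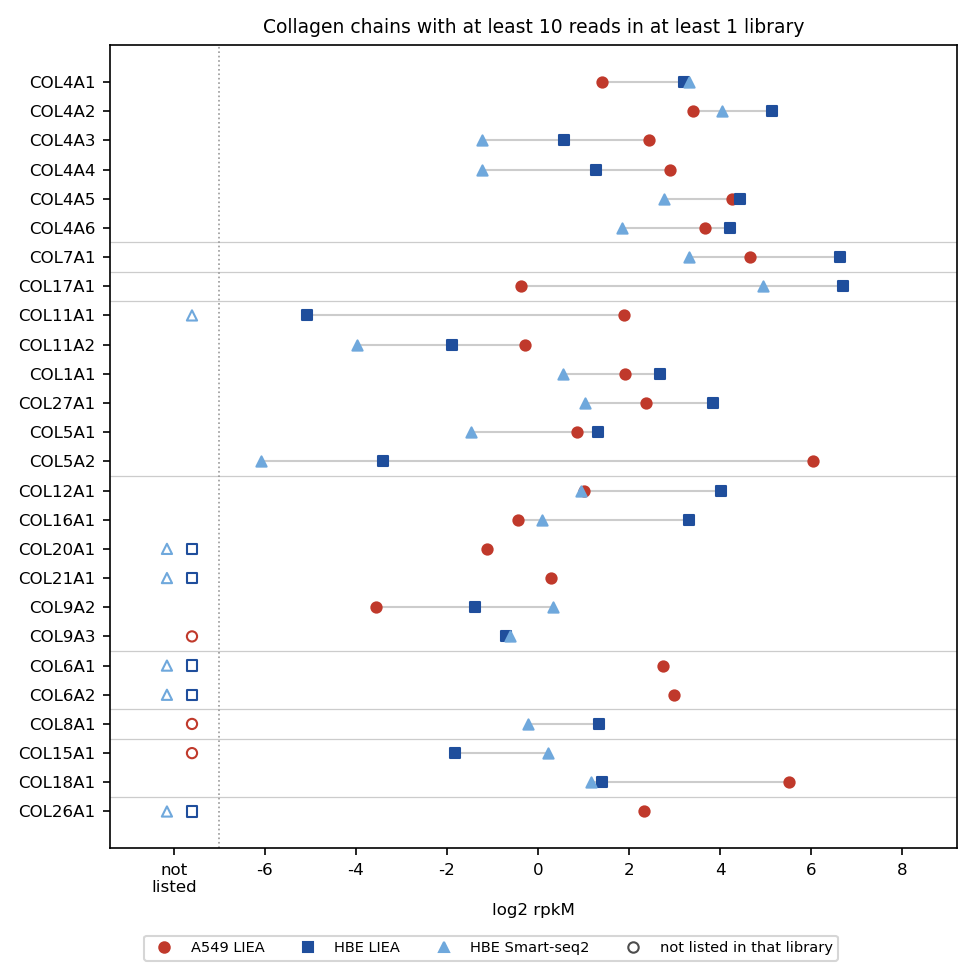
Level of each collagen chain with at least 10 reads in at least 1 library, as log2 rpkM on the horizontal axis, with 1 point per library and open symbols at the left for a library without a value. Lines divide the structural classes, and A549 LIEA is the right-most point for COL5A2 (6.04) and COL18A1 (5.52) but lies at -0.37 for COL17A1.

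Fibril-forming collagens are the tensile fibres of connective tissue, and 1 of their chains led the collagens of A549. COL5A2, a chain of type V collagen that nucleates fibrils, had 1898 reads in A549 LIEA, 3 in HBE LIEA and 1 in HBE Smart-seq2. Its log2 rpkM was 6.04, -3.41 and -6.09. The difference between the LIEA libraries was 9.45 (7.90 to 11.73), about 701-fold, and this was the largest difference of any member between these libraries. COL5A2 alone made up 28.0% of the summed collagen rpkM of A549, and its level exceeded that of 92.1% of the genes quantified there. COL5A1, the chain with which COL5A2 usually assembles, did not share this pattern. The log2 rpkM of COL5A1 was 0.85, 1.32 and -1.47, a difference of -0.47 between the LIEA libraries whose interval reached 0. COL5A3 had 3 reads in A549 LIEA, 1 in HBE Smart-seq2 and none in HBE LIEA. In A549, COL5A2 thus stood 5.19 log2 units above COL5A1 per length. The fibril-forming chains of type XI collagen, a cartilage collagen, followed COL5A2. COL11A1 had 112 reads in A549 LIEA, 1 in HBE LIEA and none in HBE Smart-seq2, a difference of 6.96 (4.45 to 12.27) between the LIEA libraries. COL11A2 had 22, 8 and 4 reads, a difference of 1.61 (0.39 to 2.99). COL1A1, the main chain of type I collagen, was low in every library with log2 rpkM of 1.92, 2.68 and 0.54, and was not called between the LIEA libraries. Its partner chain COL1A2 had no value in any library. COL27A1 had 2.37, 3.85 and 1.03, and as with COL7A1 the A549 level lay between the HBE libraries.

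Of type VI collagen, which forms beaded filaments around cells, COL6A1 and COL6A2 had reads in A549 alone. COL6A1 had 118 reads in A549 LIEA (log2 rpkM 2.75) and none in either HBE library. COL6A2 had 113 reads (2.98) and likewise none in HBE. They were at least 43.6-fold and 41.8-fold higher than in HBE LIEA, and at least 93.2-fold and 89.3-fold higher than in HBE Smart-seq2. These neighbouring genes of chromosome 21 had nearly equal levels. COL6A3, the chain with which they assemble, had no value in any library. COL6A5 had 2 reads in HBE Smart-seq2, and the pseudogenes COL6A4P1 and COL6A4P2, which resemble type VI chains closely enough that reads may be split between copies, had 4 reads in A549 LIEA and 1 in HBE Smart-seq2. COL26A1 had the same pattern as COL6A1, with 63 reads in A549 LIEA, none in HBE and at least 23.3-fold more than in HBE LIEA.

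The fibril-associated collagens, which decorate fibrils, and the short-chain collagens showed chains of each line. COL12A1 had log2 rpkM of 1.0, 4.02 and 0.95, so A549 was 8.15-fold lower than HBE LIEA and level with HBE Smart-seq2 (0.05, -0.31 to 0.40). COL16A1 had -0.45, 3.32 and 0.08, 13.6-fold lower in A549 than in HBE LIEA and 1.44-fold lower than in HBE Smart-seq2. For both genes the difference between the methods in HBE, 3.07 and 3.24, was in the range of that between the lines, -3.03 and -3.76, and of opposite sign as coded. COL20A1 and COL21A1 had 16 and 21 reads in A549 LIEA and none in HBE. These read numbers rest on a whole factor of 8 and 3 that could not be read from the values alone, and with the fewest whole reads that fit the values neither gene reaches 10. COL9A2, with 1, 5 and 35 reads, and COL9A3, with 0, 7 and 16, were below both HBE libraries in A549. The interval of COL9A2 against HBE LIEA (-7.74 to 0.99) includes no difference, however. COL9A3 was 2.10-fold lower with its A549 reads set to 3, and its counting interval against HBE LIEA reached up to -0.38. Its 2-fold call is lost when differences are centred. COL8A1, a chain of a hexagonal network known from blood vessels and cornea, had no reads in A549 LIEA, 72 in HBE LIEA and 52 in HBE Smart-seq2. It was at least 21.6-fold lower in A549 than in HBE LIEA. Its partner chain COL8A2 had 3, 1 and 0 reads. COL9A1, a partner chain of COL9A2 and COL9A3, had no value in any library.

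Of the 12 laminin chains, 9 had at least 10 reads in at least 1 library, and the 7 that were quantified in every library were all lower in A549 LIEA than in HBE LIEA. LAMB2 carries the smallest of these differences, -0.05 (-0.15 to 0.05), which becomes 0.11 when centred on the median of all genes. LAMA3 and LAMB3, alpha and beta chains of the laminin that hemidesmosomes bind, were each below both HBE libraries. LAMB3 had log2 rpkM of 4.82, 6.93 and 8.12, 4.33-fold and 9.89-fold lower in A549. LAMA3 had 2.19, 4.05 and 3.81, 3.63-fold and 3.08-fold lower.

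LAMA5, LAMB1 and LAMC1, the chains of a laminin of most epithelial basement membranes, differed little between the lines when LIEA was used for both. LAMA5 had log2 rpkM of 6.59, 7.46 and 5.02, LAMB1 had 6.54, 6.85 and 4.47, and LAMC1 had 5.57, 6.04 and 3.38. Their differences of A549 minus HBE LIEA were -0.87 (-0.92 to -0.82), -0.31 (-0.39 to -0.23) and -0.47 (-0.57 to -0.38), under 2-fold for each, whereas against HBE Smart-seq2 they were 1.57, 2.08 and 2.19. LAMB2, the beta chain that replaces LAMB1 in some basement membranes, had 5.88, 5.93 and 3.99. All 4 chains were higher in LIEA than in Smart-seq2 of HBE, by 1.94 for LAMB2 to 2.66 for LAMC1, whereas LAMB3 was not. LAMA4 and LAMC3 were the laminin chains above both HBE libraries in A549, at low levels, with 12 reads against 1 and 1 for LAMA4 and 37 against 3 and 0 for LAMC3. LAMA1, LAMA2 and LAMB4 had at most 4 reads in any library.

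The makeup of the laminin genes differed between the lines and between the methods. LAMB3 held 15.6%, 40.8% and 88.0% of the beta chains. LAMA5 held most of the alpha chain rpkM in every library, 95%, 91.3% and 69.7%, and LAMA3 held 4.49%, 8.59% and 30.2%.

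**Figure D2:**
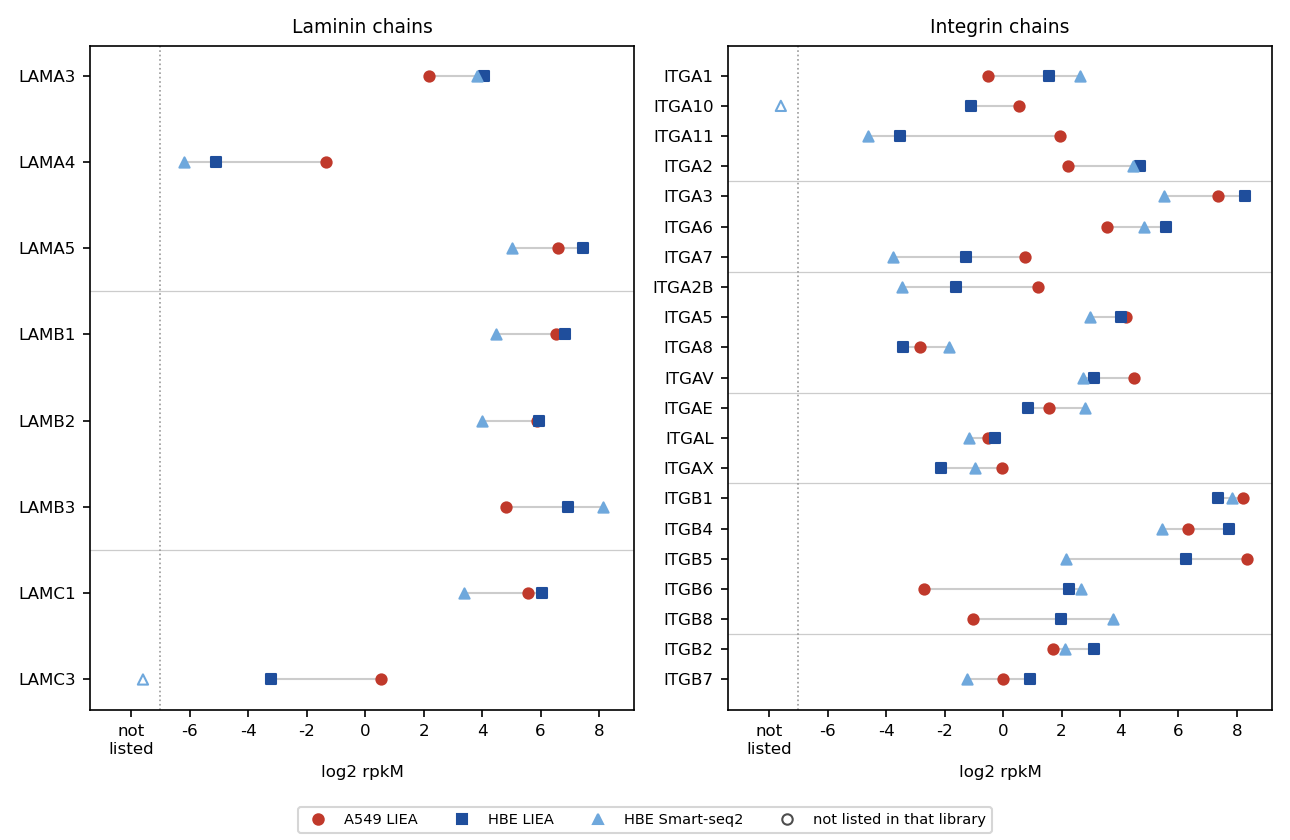
Level of the laminin and integrin chains named in the text that had at least 10 reads in at least 1 library, as log2 rpkM, with 1 point per library and open symbols for a library without a value. ITGB6 (-2.70 in A549 LIEA against 2.24 and 2.65) lies far below the HBE points, and ITGB5 spans 2.15 to 8.36.

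Among the integrin beta chains, ITGB1, the common partner of most collagen, laminin and fibronectin receptors, varied least of those quantified in every library. Its log2 rpkM was 8.21 in A549 LIEA, 7.36 in HBE LIEA and 7.83 in HBE Smart-seq2, and no pair of libraries differed 2-fold. ITGB4, which pairs with ITGA6 in hemidesmosomes, had 6.33, 7.72 and 5.45. It was 2.61-fold lower in A549 LIEA than in HBE LIEA and 1.85-fold higher than in HBE Smart-seq2, so its direction, too, depended on the HBE library. ITGB5, which pairs with ITGAV as a vitronectin receptor, was the member with the highest level in A549, with 4608 reads and a log2 rpkM of 8.36, above 98.5% of the genes quantified there. In HBE its level was 6.25 by LIEA with 1184 reads and 2.15 by Smart-seq2 with 147 reads. A549 LIEA was 2.11 (2.02 to 2.20) above HBE LIEA. The difference between the methods in HBE was 4.11 (3.86 to 4.36), or 17.2-fold, and exceeded that between the lines. ITGB6 and ITGB8, which pair with ITGAV and release active TGF-beta from its latent complex, were low in A549. ITGB6 had 3 reads in A549 LIEA, 102 in HBE LIEA and 290 in HBE Smart-seq2, a difference between the LIEA libraries of -4.94 (-7.24 to -3.35). ITGB8 had 18, 158 and 1178 reads, a difference of -2.98 (-3.78 to -2.28). The partner ITGAV had log2 rpkM of 4.48, 3.12 and 2.74, so that A549 was 2.57-fold and 3.35-fold above the HBE libraries. Of the chains that pair with ITGAV, ITGB5 was thus above both HBE libraries with ITGAV itself, and ITGB6 and ITGB8 were below both. ITGB3 had 4, 3 and 8 reads.

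ITGB5 held 46.3% of the summed beta chain rpkM in A549 LIEA, ITGB1 41.6% and ITGB4 11.3%. In HBE LIEA the order was ITGB4 with 44.8%, ITGB1 with 34.9% and ITGB5 with 16.2%. In HBE Smart-seq2 ITGB1 held 75.7%, ITGB4 14.5%, ITGB8 4.53%, ITGB6 2.09% and ITGB5 1.47%. Each library had a different leading chain.

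**Figure D3:**
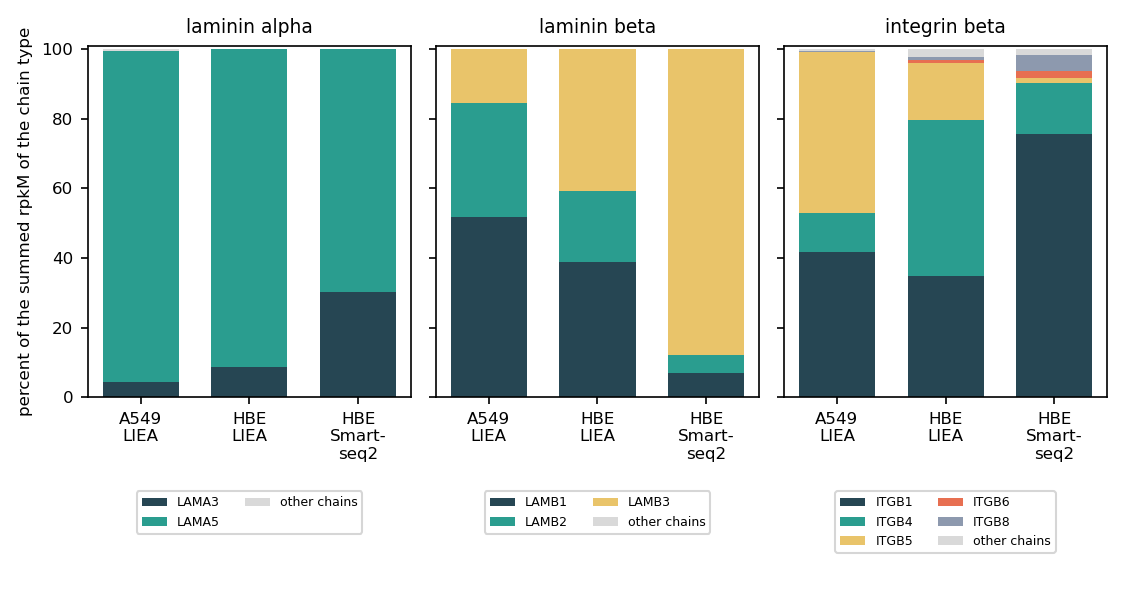
Percent of the summed rpkM of each chain type that each chain made up, for laminin alpha and beta chains and integrin beta chains, with 1 stacked bar per library. LAMB3 makes up 15.6% of the laminin beta chains in A549 LIEA and 88.0% in HBE Smart-seq2, and ITGB5 makes up 46.3%, 16.2% and 1.47% of the integrin beta chains.

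The alpha chains that bind laminin were led by ITGA3 in every library. ITGA3 had log2 rpkM of 7.34, 8.29 and 5.52 and held 69.2%, 74.6% and 36.5% of the summed alpha chain rpkM. ITGA3 of A549 differed by -0.95 (-1.0 to -0.89) from HBE LIEA and by 1.82 from HBE Smart-seq2, and the methods differed by 2.77 (2.70 to 2.84). ITGA6, the hemidesmosome chain, had 3.54, 5.58 and 4.83, and was 4.13-fold and 2.46-fold lower in A549. Together with COL17A1, LAMA3 and LAMB3 it was below both HBE libraries, whereas its partner ITGB4 was not. ITGA7, the laminin receptor chain of muscle, was above both HBE libraries in A549 at a low level, with 29, 8 and 3 reads.

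The 4 collagen-binding alpha chains, which all pair with ITGB1, split evenly. ITGA2, the main collagen receptor chain of epithelia, had log2 rpkM of 2.23, 4.70 and 4.46. It was 5.56-fold lower in A549 LIEA than in HBE LIEA, and the HBE libraries differed by 0.24 (0.12 to 0.35). ITGA1 had -0.51, 1.58 and 2.63, 4.25-fold and 8.8-fold lower in A549. The other two were higher in A549. ITGA11, known from fibroblasts, had 160 reads in A549 LIEA and 4 in each HBE library, a log2 difference of 5.47 (4.09 to 7.36) between the LIEA libraries. ITGA10, known from cartilage, had 31, 11 and 0 reads, a difference of 1.64 (0.61 to 2.78). Of the 7 fibroblast markers, THY1 was above both HBE libraries in A549, with 34, 2 and 0 reads and a log2 rpkM of 0.77 in A549 LIEA. PDGFRA had 5 reads in A549 LIEA and none in HBE. FAP went the other way, with no value in A549 LIEA and log2 rpkM of 2.45 and 3.94 in HBE. It was not called, which rests on its uncertain read numbers.

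ITGA5, the fibronectin receptor chain, had 324 reads in A549 LIEA, 324 in HBE LIEA and 325 in HBE Smart-seq2. At their depths this gave log2 rpkM of 4.20, 4.05 and 2.96, a difference of 0.15 (-0.08 to 0.38) between the LIEA libraries. ITGA2B, the alpha chain of the platelet fibrinogen receptor, had 32, 5 and 3 reads. ITGA8 had 4, 3 and 19 reads. The leukocyte chains were present at low levels: ITGB2, the beta chain they share, had 40, 117 and 127 reads, ITGAL 15, 20 and 23, and ITGAX 19, 5 and 24. ITGAE, which pairs with ITGB7 and binds E-cadherin, had log2 rpkM of 1.58, 0.85 and 2.82, and ITGB7 had 0.01, 0.92 and -1.23, so the pair differed in direction between the methods. The leukocyte marker PTPRC had 2, 0 and 3 reads.

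**Figure D4:**
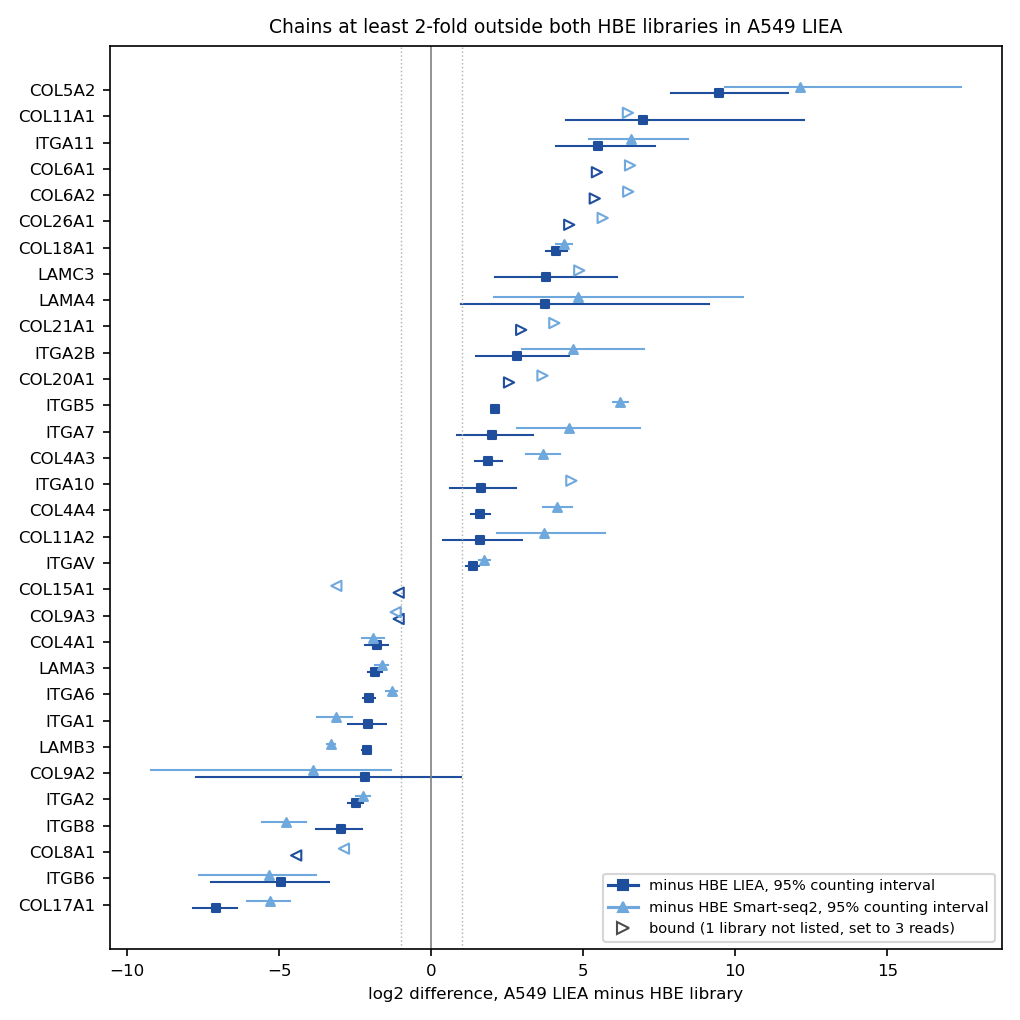
Log2 difference of A549 LIEA minus each HBE library for the protein chains named in the text that lay at least 2-fold outside both, ordered by the difference from HBE LIEA, with bars for the 95% counting intervals and open triangles for bounds. COL5A2 is at the top with 9.45 and COL17A1 at the bottom with -7.07, and dotted lines mark 2-fold.

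Both HBE libraries were made from HBE mRNA, so their comparison gives the size of the difference between 1 library of each method for the same chains. Variation between libraries of the same method is part of this difference and could not be measured. LIEA was at least 2-fold higher than Smart-seq2 for 25 of 48 members (52.1%) and lower for 9 (18.8%), while 28.4% of all 13607 genes were higher and 22.2% lower. The excess lay on the higher side: among the 41 members with 10 reads in both, the median difference was 1.57 log2 units, and it was 0.10 over 11772 genes. Collagens had a median of 2.14, with 14 of 15 chains higher in LIEA, laminins 1.94, beta chains 0.98 and alpha chains 0.57. The widest differences were those of ITGB5 (4.11), COL7A1 (3.31), COL16A1 (3.24) and COL12A1 (3.07) on the LIEA side. COL15A1 (-2.05), ITGAE (-1.98), ITGB8 (-1.80) and COL9A2 (-1.71) lay furthest on the other side among the protein chains, and LAMB3, with 2419 reads in LIEA and 11815 in Smart-seq2, was -1.19 (-1.26 to -1.13). COL1A1, COL5A1 and COL27A1, the fibril-forming chains quantified in both, were 2.14, 2.79 and 2.82 log2 units higher in LIEA.

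The member transcripts were longer and richer in GC than others, with a median length of 5808 nt and 54.7% GC against 3145 nt and 48.7% over all genes with 10 reads. Across the 41 members the LIEA minus Smart-seq2 difference went with GC content (Pearson 0.54, Spearman 0.52), and over 11545 genes the coefficients were 0.40 and 0.40. Against log2 length they were 0.34 and 0.26 for members and 0.26 and 0.28 for all genes. These points share the same libraries and depths, and genes are not replicates. The 11 members of at least 60% GC were all higher in LIEA, with a median of 2.44 against 1.02 for all genes of that GC content. The 10 members below 45% GC had a median of -0.57, and all such genes -0.47. In this low group were ITGA1, ITGA2, ITGA6, ITGAV, ITGB1, ITGB6 and ITGB8, while the 12 members of 45 to 55% GC, with ITGB5, LAMC1, LAMB1 and the COL4A3 to COL4A6 genes, had a median of 2.08 against 0.26. The 8 members of 55 to 60% GC had a median of 1.03 against 0.62. Within these GC ranges the members were also longer, with a median of 6632 nt against 3192 nt at 45 to 55% GC and 5919 nt against 2498 nt at 60% and above, and the part of GC content and length in the difference was not tested. Library preparation, amplification, platform and mapping settings differed together between the libraries. They cannot be told apart from each other or from variation between single libraries.

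**Figure D5:**
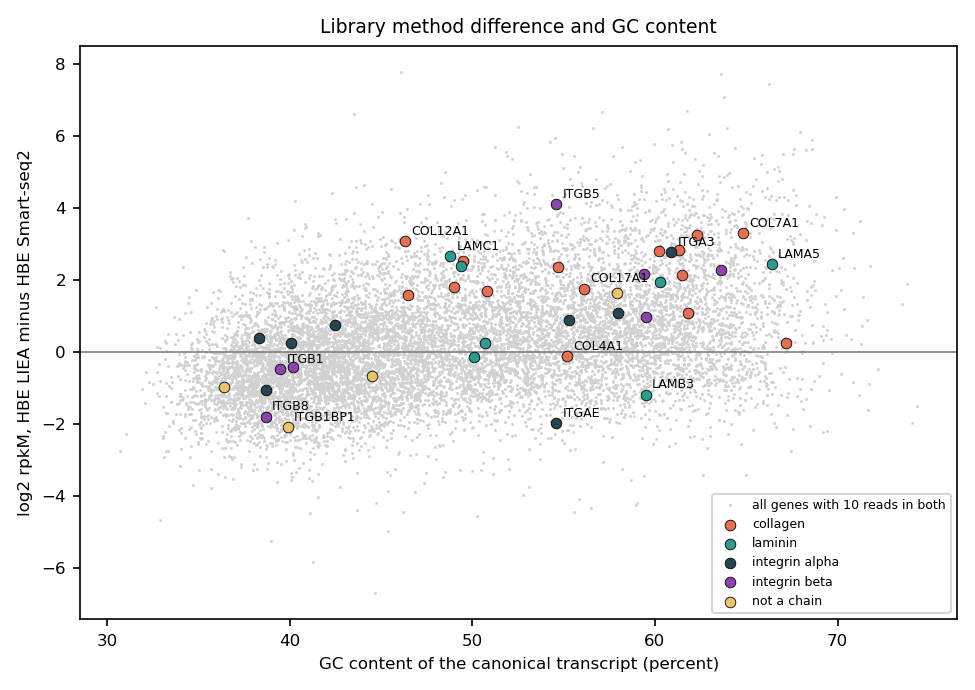
Difference of log2 rpkM, HBE LIEA minus HBE Smart-seq2, against the GC content of the canonical transcript in percent, for all genes with 10 reads in both libraries (grey) and the members by family (coloured). The 11 members at 60% GC or more all lie above 0, and ITGB5 lies highest at 4.11.

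Of the 9 members that are not chains, 5 had at least 10 reads in a library, and 1 of them was outside both HBE libraries in A549. ITGB1BP1, a regulator of ITGB1 activation, had log2 rpkM of 3.83, 3.66 and 5.76 and was 4.29-fold lower in LIEA than in Smart-seq2. ITGB3BP, a centromere protein, had 1.86, 3.08 and 4.05 and was the 1 below both HBE libraries in A549. COL4A3BP had 1.60, 1.95 and 2.61. ITGB1BP2 had 7, 11 and 7 reads. The antisense gene ITGB2-AS1 had 9, 16 and 11 reads, and ITGA9-AS1 and COL18A1-AS1 had at most 2, and their reads and those of the genes opposite cannot be told apart where the strand was not recorded. The members with a value in 1 library only were, beside COL6A1, COL6A2, COL20A1, COL21A1, COL26A1, COL6A4P1, COL6A4P2 and COL6A5 above, COL3A1 and LAMA2 with 3 reads and COL14A1 and COL22A1 with 1 read in A549 LIEA, and ITGA9 and LAMB4 with 2 reads and COL2A1, COL23A1 and COL18A1-AS1 with 1 read in HBE LIEA. At these depths, differences were not detectable for the members of this group that had 1 to 3 reads. Of the remaining members, COL10A1, COL13A1, COL28A1, ITGA4 and ITGAM had at most 6 reads.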

How the data were processed

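Libraries were grouped by the cell line and method in the labels. Ion Torrent reads had been filtered on length and base quality. The authors aligned the reads to RefSeq-RNA by FANSe2, combined transcript variants into genes and deposited a log2 rpkM for each, and the submitters' processing notes name hg19. Whether counting used strand is not given in the sources used here. In each library 4 rows with repeated names were left out, as were 1589 blank rows of Smart-seq2.

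Reads were worked out from the deposited log2 values, using the totals at which reads and transcript lengths became whole numbers, and all 18856 genes (100%) gave whole reads. Reads and length of a gene are fixed only up to a common whole factor of 1 to 12, which was chosen from GENCODE release 44 transcript lengths on GRCh37 (94.0% of genes matched) and was above 1 for 2352 genes. Recovered reads sum to 102% to 103% of the totals, so some factors are too large. Factors above 12 were not tried, so the reads of a gene such as FAP can also be too few. Log2 differences do not depend on the factor, while read numbers, intervals and bounds do. In simulated reads of the 3 libraries, 97.2% of 18381 genes had their exact reads. The simulation used the recovered lengths, so this share does not measure how often the chosen factor is right in the deposited values.

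A gene was quantified at 10 reads and called at a 2-fold difference, and 1 without a value was set to 3 reads, which gives a bound. Such a bound takes the reads of the other library as exact, so it leaves out their counting error. With 1 library per condition no test was run. Intervals are exact (Clopper-Pearson) at 95%. Members were named that had a log2 rpkM of at least 5, lay 4-fold outside both HBE libraries in A549, differed 4-fold between the HBE libraries, were partner chains of these or had a value in 1 library only, and the remaining ones were added so that each is accounted for, except 1 member that is counted but not reported here. The members and lists were chosen with earlier results of these data known. GC content is that of the canonical GENCODE transcript. Length is the one worked out with the reads, so it depends on the chosen factor. The alternatives tried were other filters on low values, a 4-fold call, centring on the median of all genes, log2(rpkM + 1), intervals excluding no difference, protein chains alone and other choices of the reads. The software was Python 3.11.15 with pandas 2.3.3, numpy 2.4.6, matplotlib 3.10.9 and scipy 1.17.1.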

Additional observations from a re-analysis of the deposited data

How the results depend on the processing

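No paired analysis was possible because the labels number no replicates and every condition is a lone library, which also leaves no replicate to omit. The counts of members called and quantified were mostly stable. With no filter on low values, 40 members in place of 25 were higher in HBE LIEA than in Smart-seq2. A 4-fold call gave 16 higher and 2 lower in that comparison, in place of 25 and 9, 11 in place of 19 lower in A549 LIEA than in HBE LIEA, and 9 in place of 15 below both HBE libraries. With log2(rpkM + 1), 4 in place of 9 members were lower in LIEA than in Smart-seq2. Counting members listed at any value gave 68 in place of 43 in HBE LIEA. All other alternatives left these counts within 1.5 times. Taking HBE Smart-seq2 in place of HBE LIEA changed the sign of the difference of A549 for 17 of the 38 members quantified in every library. Of those called against HBE LIEA, COL12A1 turned to 0.05, COL27A1 to 1.34, COL7A1 to 1.34 and ITGB4 to 0.88. Among the others, COL5A1 turned to 2.32, LAMC1 to 2.19, LAMB1 to 2.08, LAMB2 to 1.89, ITGA3 to 1.82, COL4A6 to 1.81, LAMA5 to 1.57, COL4A5 to 1.49, COL1A1 to 1.37 and ITGAE to -1.24. The comparison with HBE Smart-seq2 differs in method as well as in cell line, so it is not a second estimate of the difference between the lines. Each turn is the difference between the HBE libraries added to that between the LIEA libraries, and the cause of the former was not tested. Centring moved all differences by 0.16 (A549 against HBE LIEA) or 0.10 (methods). Taking for each gene the fewest whole reads that fit (a setting added once the data had been seen), 17 members were above both HBE libraries in A549, without COL20A1 and COL21A1. Depth limits the low chains: a gene without reads in HBE LIEA could be at 0.651 reads per 1000000 mapped reads.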

Other observations

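Genes that act with these chains were described from 5 lists, counting those at least 2-fold above or below both HBE libraries in A549 LIEA. Of 17 other matrix genes tested, 8 were above both and 4 below. FN1, the fibronectin that ITGA5 and ITGB1 bind, had 25508 reads in A549 LIEA, 163 in HBE LIEA and 240 in HBE Smart-seq2 (log2 rpkM 9.45, 2.01 and 1.47). VTN, vitronectin, the ligand of ITGAV with ITGB5, had 609, 1 and 11 reads, and SPP1, osteopontin, another integrin ligand, had 1210, 1 and 3. NID1, FBLN2, NPNT, FRAS1 and PXDN were the others above both. TNC, tenascin C, had 7, 639 and 509 reads, NID2, a nidogen that links laminin and type IV collagen, had 110, 2002 and 1628, and THBS1 and FREM2 were also below both. HSPG2 (log2 rpkM 5.04, 4.24 and -0.37) and AGRN (5.79, 6.6 and 1.08), the basement membrane proteoglycans perlecan and agrin, were 4.62 and 5.51 log2 units higher in HBE LIEA than in HBE Smart-seq2, and not outside both HBE libraries in A549.

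Of 19 adhesion genes inside the cell, 5 were above both (TLN2, SRC, PARVB, TNS1 and TNS3) and 2 below (FERMT1 and ZYX). PARVB, parvin beta, which links integrins to actin, had 615 reads in A549 LIEA and none in HBE, while PARVA had log2 rpkM of 2.82, 2.56 and 3.30. DST and PLEC, which tie hemidesmosomes to keratin, were not outside both, with log2 rpkM of 4.10, 4.63 and 3.83 for DST and 6.82, 6.26 and 5.20 for PLEC. Of 20 collagen synthesis genes, 4 were above both (P4HA2, P4HA3, BMP1 and LOXL4) and 2 below (LOXL1 and LOXL3). P4HA3, a prolyl hydroxylase chain, had 93 reads in A549 LIEA and none in HBE, and SERPINH1, the collagen chaperone, had log2 rpkM of 6.48, 7.54 and 6.10. Of 10 matrix proteases and inhibitors, 3 were above both (MMP2, MMP7 and TIMP2) and 3 below (MMP1, MMP14 and TIMP3). MMP14, a membrane-bound collagenase, had 18, 1376 and 340 reads, and TIMP3, an inhibitor held in the matrix, had 6, 479 and 642. Of 8 receptors other than integrins, SDC4 was below both with log2 rpkM of 3.56, 5.35 and 7.64, and none was above. Of all genes, 15.6% were above both and 13% below.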
